A study of Mus musculus with 6 samples.

Results

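B lineage and plasma cell genes, from surrogate light chain genes of precursors to genes of antibody-secreting cells, were examined in mouse aortic arches. The 31 genes were taken as every probe that is not a control and carries one of these gene names, out of 34821 gene names on the array, and 39 probes were found for them. They fall by role into 3 precursor genes, 5 transcription factors, 8 genes of the B cell receptor complex and its signalling, 11 surface proteins and 4 plasma cell genes. Igj and Faim3, as the array spells them, are today called Jchain and Fcmr.

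The arches came from irradiated female C57BL/6 mice whose marrow had been replaced, and the series asked which arch transcripts differ when marrow-derived cells lack miR-21. All recipients were Mir21+/+ and had 2 whole-body X-ray doses of 5 Gy inside 4 h. In the BM Mir21 WT group (WT1 to WT3), donor marrow given 1 day later was Mir21+/+, and in the BM Mir21 KO group (KO1 to KO3) it was Mir21-/-. Both groups went onto a high-fat diet 3 weeks after irradiation and stayed on it for 12 weeks, and each of the 3 arrays per group held the arch RNA of 1 mouse. The vessel wall of both groups thus stays wild type for Mir21, as do any blood cells of the host that outlived irradiation, and the labels give neither the share of donor cells in each arch nor the age of the mice or the hour of sampling.

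B cells arise in the marrow. A precursor that has rearranged its immunoglobulin heavy chain shows it with a surrogate light chain, and EBF1 and PAX5 commit it to the lineage. Mature B cells signal through the antigen receptor, whose immunoglobulin is bound to CD79A and CD79B, and IRF4 and BLIMP-1 drive the change to plasma cells. In atherosclerotic mice, B cells lie mainly in the adventitia and in the fat and lymphoid aggregates around the artery rather than in the plaque.

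The upstream sequences of 4 members are shown as examples, with and without the octamer element, of genes that were lowest on WT2 and KO2 within their groups. Each is the 250 bases before the annotated start, 5′ to 3′ on the gene's strand, from RefSeq on GRCm38.p6, and capitals mark a match to the core of that element.
Spib (chr7:44532072-44532321, minus strand): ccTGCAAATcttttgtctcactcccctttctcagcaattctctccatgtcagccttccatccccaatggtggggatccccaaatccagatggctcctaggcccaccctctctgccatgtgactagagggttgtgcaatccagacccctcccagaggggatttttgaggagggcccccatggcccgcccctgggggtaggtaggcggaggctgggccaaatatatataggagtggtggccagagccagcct
Pou2af1 (chr9:51213440-51213689, plus strand): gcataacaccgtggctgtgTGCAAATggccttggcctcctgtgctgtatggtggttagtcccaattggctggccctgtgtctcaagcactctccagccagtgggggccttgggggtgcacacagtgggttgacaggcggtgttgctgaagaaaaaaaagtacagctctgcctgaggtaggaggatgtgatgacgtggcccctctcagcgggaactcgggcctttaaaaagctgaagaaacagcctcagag
Vpreb3 (chr10:75948050-75948299, plus strand): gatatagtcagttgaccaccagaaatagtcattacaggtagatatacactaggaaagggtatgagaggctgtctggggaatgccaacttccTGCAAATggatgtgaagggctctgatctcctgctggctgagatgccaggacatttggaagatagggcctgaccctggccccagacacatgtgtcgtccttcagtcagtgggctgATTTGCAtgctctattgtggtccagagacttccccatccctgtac
Igj (chr5:88527898-88528147, minus strand): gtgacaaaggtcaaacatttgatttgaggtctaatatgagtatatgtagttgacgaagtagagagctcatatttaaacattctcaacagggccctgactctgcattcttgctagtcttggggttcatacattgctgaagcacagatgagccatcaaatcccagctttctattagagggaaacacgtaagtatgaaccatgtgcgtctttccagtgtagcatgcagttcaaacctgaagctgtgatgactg
The octamer element is bound by the POU factors POU2F1 and POU2F2 with the coactivator POU2AF1. Its core was searched as ATTTGCA on both strands, whose reverse complement is TGCAAAT. RefSeq held 33 promoters for 28 of the 31 genes, and Ms4a1, Cd79b and Blk had no entry. The octamer core was in 5 of the 33, those of Spib, Prdm1, Blnk, Pou2af1 and Vpreb3, and in 3.56% of all 32851 promoters of this length. Counted from the start, the match lies at -248 to -242 in Spib and at -231 to -225 in Pou2af1. Vpreb3 holds 2 matches, and Igj holds none of these letters in this window. Of the 7 genes with an entry that were lowest on WT2 and KO2 within their groups, 3 held the core, and Igj, Cd79a, Faim3 and Pax5 did not. Prdm1 and Blnk held the core without that order of arrays. The 7 genes were picked by their order on these arrays, and a link between that order and the core was not tested.

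Levels are log2 processed signals relative to each array's 75th percentile of signal, so that a level of 0 equals that percentile, and they are compared within a probe, never between probes. A difference is the mean of KO1 to KO3 minus the mean of WT1 to WT3 on this log2 scale, given with its standard error from limma. The arrays had 66.4% to 74.4% of spots well above background and 0 saturated spots, with KO3 the lowest. The smooth muscle genes Myh11 and Acta2 were well above background on every array, as arch tissue should have them. The donor genotype could not be checked, since 0 probes carried the name Mir21 or Mir21a. All arrays shared 1 slide and 1 scan, but WT arrays lay in slide row 1 and KO arrays in row 2, so that row and group cannot be told apart.

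Transcripts of the B lineage were measured in all 6 arches, and 0 members passed the adjusted test between the groups, where 1 of 38342 tested probes did (0.00261%). Of the 31 genes, 27 were tested, with 34 probes, and for each of these genes the brightest tested probe lay well above background on all 6 arrays. The differences of the 27 genes had a median of 0.08 against 0.02 over all tested probes, 17 genes being higher in the KO mean and 10 lower. They ran from -1.46 for Irf4 to 0.46 for Blnk, and every 95% interval of these brightest probes included 0. In whole arches, fewer cells of a type and less RNA per cell cannot be told apart.

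At an unadjusted p below 0.05, 8.71% of all tested probes differed and 3 of the 34 member probes did (8.82%). These 3 were the dimmer of the probes for Pax5, Cd79a and Cd37. The groups did not overlap for 13.7% of all tested probes and for 5 member probes (14.7%), which were the same 3, the brighter Cd37 probe and Swap70. The KO arrays were the higher for 4 of them (11.8% of member probes, 7.58% of all probes). They were the lower for Swap70 (2.94% of member probes, 6.14% of all probes). The shares of 8.82% and 14.7%, without regard to direction, lie near those of all probes. By brightest probes, 0 of the 27 genes were below that p, and the groups did not overlap for 2 (7.41%), Cd37 and Swap70.

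**Figure D1:**
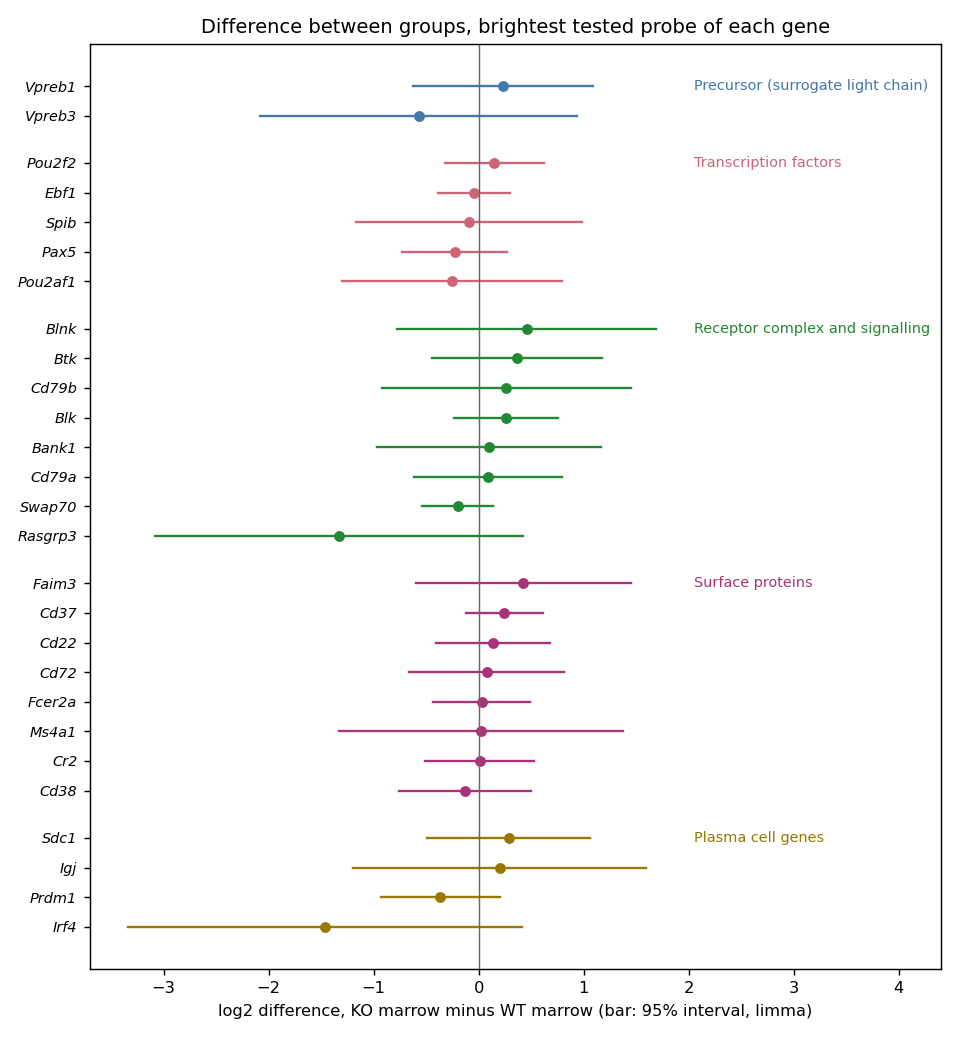
Log2 difference between KO and WT marrow arches (x axis) for the brightest tested probe of 27 genes (y axis), grouped by role, with 95% intervals from limma over 3 against 3 arrays. Every interval includes 0, and those of Irf4, Rasgrp3 and Vpreb3 are the widest.

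Members varied more between arrays of one group than most probes did. Their median residual SD was 0.51 on the log2 scale, against 0.25 over all tested probes. By role, the median residual SD was 0.27 for transcription factors, 0.35 for surface proteins, 0.63 for receptor and signalling genes, 0.74 for plasma cell genes and 0.81 over the 2 tested precursor genes. By brightest probes, KO1 was the highest of the 6 arrays for 12 of the 27 genes (20.9% of all tested probes) and KO2 the lowest for 9 (18.6% of all probes). Counted by probe, KO2 was the lowest for 9 of the 34 member probes (26.5%).

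**Figure D2:**
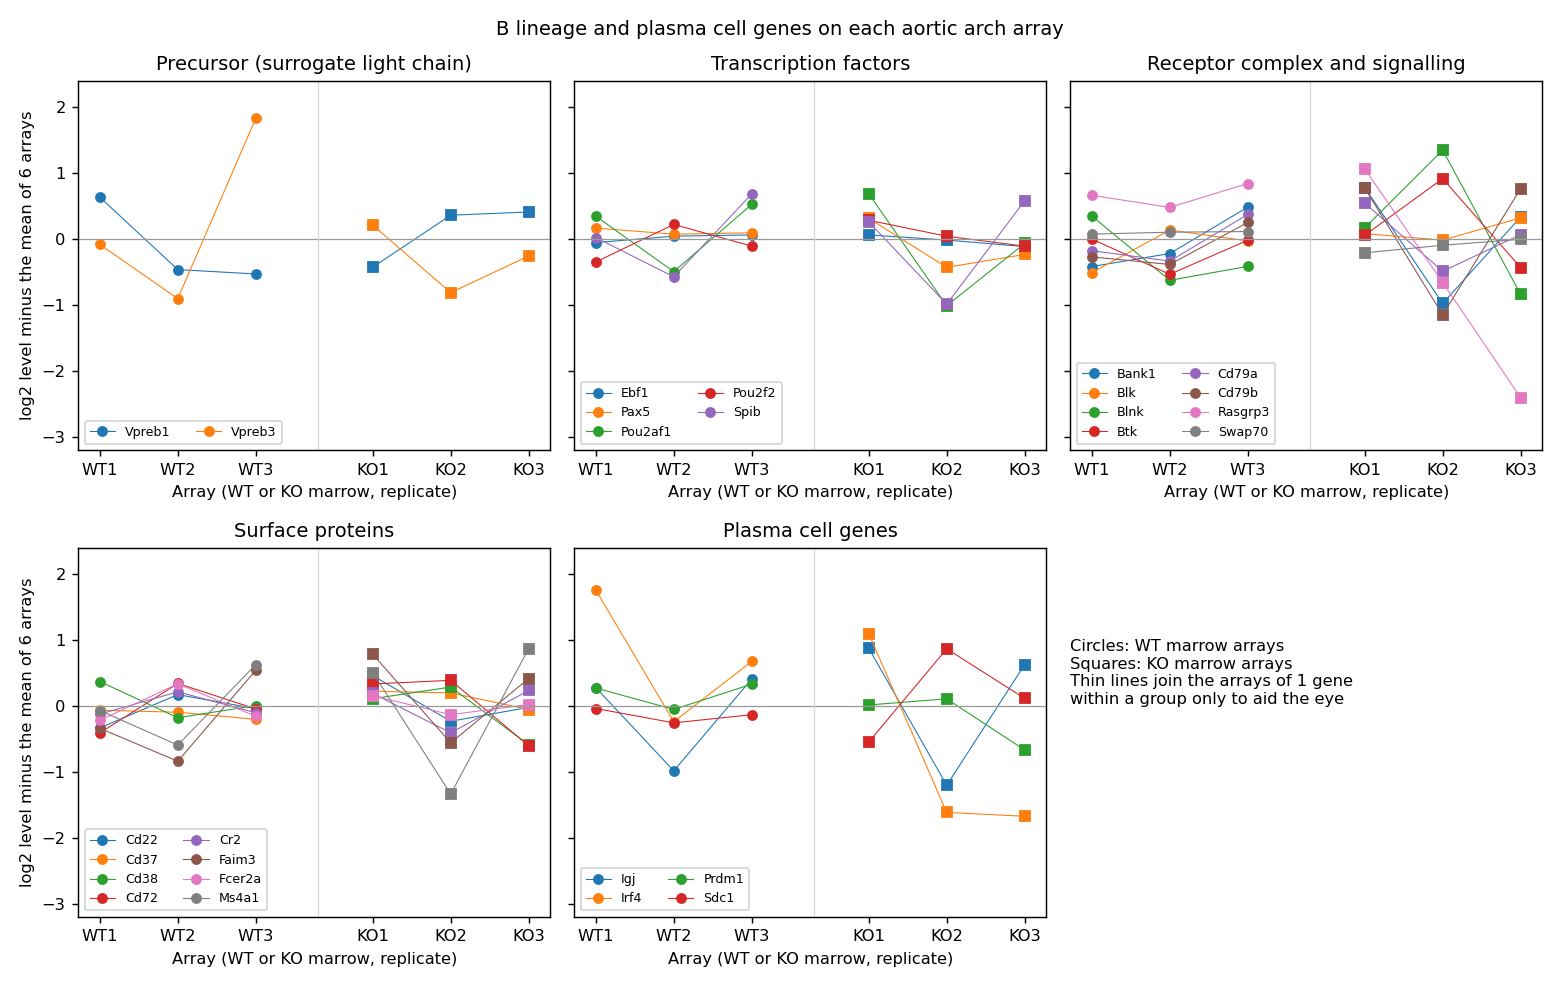
Level of each tested gene on each array (x axis) as log2 level minus that gene's mean of 6 arrays (y axis), in a panel per role. Circles are WT marrow and squares KO marrow arrays, and lines only guide the eye. Ebf1 and Swap70 lie near 0 on every array, while Irf4, Rasgrp3 and Vpreb3 spread widely.

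The groups overlapped for both tested precursor genes. Vpreb1, a chain of the surrogate light chain, stood at -1.99, -3.09 and -3.15 on WT1 to WT3 and at -3.05, -2.26 and -2.21 on KO1 to KO3. The highest array was a WT one and the lowest also, and the difference was 0.23 ± 0.37. Vpreb3, whose product binds heavy chains inside the cell, stood at -3.06, -3.88 and -1.15 on the WT arrays and at -2.77, -3.79 and -3.24 on the KO arrays. WT3 stood well above the other 5, and the difference was -0.57 ± 0.65 (95% interval -2.08 to 0.94). Igll1, the other chain of the surrogate light chain, was too dim to be tested, with 0 arrays well above background.

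Of the transcription factors, Ebf1 was the steadiest member. Its levels were 1.48, 1.57 and 1.59 on the WT arrays and 1.59, 1.51 and 1.41 on the KO arrays, with a difference of -0.04 ± 0.15. Ebf1 is also made by fat and stromal cells, so that its level in a whole arch does not count B cells alone. Pax5, which holds B cells to their identity, stood at -2.06, -2.15 and -2.13 on the WT arrays and at -1.92, -2.66 and -2.46 on the KO arrays. KO2 and KO3 were below all other arrays and KO1 above them, and the difference was -0.23 ± 0.22. Pou2f2, the lymphoid octamer-binding factor OCT-2, ran from -1.98 to -1.34 and differed by 0.15 ± 0.20.

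Pou2af1, the B cell coactivator whose upstream octamer core is shown above, stood at -1.50, -2.34 and -1.32 on WT1 to WT3 and at -1.16, -2.86 and -1.91 on KO1 to KO3. Spib, an ETS factor of B cells and plasmacytoid dendritic cells, stood at -3.24, -3.83 and -2.57 on the WT arrays and at -3.00, -4.25 and -2.68 on the KO arrays. Both genes were lowest on replicate 2 of their group, WT2 and KO2, and the groups overlapped. The differences were -0.26 ± 0.45 for Pou2af1 and -0.09 ± 0.46 for Spib. Over the 5 factors the median difference was -0.09, with 1 gene higher and 4 lower.

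Cd79b, and Cd79a by its brighter probe, were also lowest on WT2 and KO2 within their groups. The dimmer Cd79a probe was lowest on WT1 and KO2. Cd79b, the Ig-beta chain, stood at -0.14, -0.25 and 0.39 on the WT arrays and at 0.91, -1.01 and 0.90 on the KO arrays. KO2 was the lowest and KO1 and KO3 the highest of the 6, so that the KO group surrounded the WT group. The difference was 0.27 ± 0.51. Cd79a, the Ig-alpha chain, stood at -1.62, -1.77 and -1.07 on the WT arrays and at -0.89, -1.93 and -1.37 on the KO arrays by its brighter probe, and differed by 0.09 ± 0.30. The scanner files place that probe at chr12:53180558-53180617 on mm9, and the dimmer Cd79a probe on chromosome 7. A level of the brighter probe may therefore belong to another transcript, and that was not tested.

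Blnk, the adaptor that links SYK to BTK, had the largest positive difference, 0.46 ± 0.53. Its levels were 1.19, 0.22 and 0.43 on the WT arrays and 1.01, 2.19 and 0.00 on the KO arrays, so that KO2 was the highest and KO3 the lowest of all 6. Btk, the kinase downstream of it, stood at -2.10, -2.63 and -2.12 on the WT arrays and at -2.04, -1.18 and -2.53 on the KO arrays, again highest on KO2. It differed by 0.36 ± 0.35, and its other probe was not tested. Macrophages also make both proteins. On KO2 the macrophage markers were high too, with 10 of 11 tested markers at their highest there, while Cd163 was not tested. Their summed signal, each in multiples of the 75th percentile, was 37.4 to 53.2 on the WT arrays and 30.98 to 90.5 on the KO arrays. Their part in the Blnk and Btk values was not tested.

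Rasgrp3, an exchange factor for RAS that is active in B cells and in vessel endothelium, had the largest negative difference of this group, -1.33 ± 0.75. Its levels were -1.33, -1.52 and -1.16 on the WT arrays and -0.93, -2.66 and -4.41 on the KO arrays. KO1 was the highest of the 6 and KO3 the lowest, so that the groups overlapped. The lowest level of any probe well above background on KO3 was -4.57, so the Rasgrp3 value there lies near that array's floor. The probe lies at chr17:75928310-75928369 on mm9, the fold was 2.51 lower in KO marrow arches, and limma gave an adjusted p of 0.653. Without KO1 the difference was -2.20, without KO3 it was -0.46, and after normexp background correction it was -0.55.

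Swap70, which binds RAC in B cells and mast cells, was lower on every KO array. It stood at 1.49, 1.52 and 1.53 on the WT arrays and at 1.20, 1.32 and 1.41 on the KO arrays, with a difference of -0.20 ± 0.15 (limma, adjusted p = 0.727). Blk, a B cell kinase of the SRC family, ran from -4.54 to -3.71 and differed by 0.26 ± 0.21. Bank1, a B cell scaffold protein, ran from -3.81 on KO2 to -2.05 on KO1 and differed by 0.10 ± 0.46. Over these 8 genes the median difference was 0.18, with 6 higher and 2 lower.

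Among the surface proteins, Ms4a1, which encodes CD20 and is the most specific of them for B cells, varied most between arrays of a group. It stood at -1.38, -1.90 and -0.68 on the WT arrays and at -0.80, -2.65 and -0.44 on the KO arrays. KO2 was the lowest and KO3 the highest of the 6. The difference was 0.03, with a 95% interval from -1.33 to 1.38, which leaves room for either group to hold more than its counterpart. Faim3, the Fc receptor for IgM, stood at -2.71, -3.21 and -1.83 on the WT arrays and at -1.58, -2.93 and -1.95 on the KO arrays, with a difference of 0.43 ± 0.44.

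Cd37, a tetraspanin of B cells and other leukocytes, was the one gene whose probes both separated the groups. Its brighter probe, at chr7:52489002-52489061 on mm9, stood at 0.07, 0.04 and -0.07 on the WT arrays and at 0.35, 0.33 and 0.08 on the KO arrays. Its dimmer probe, at chr7:52490054-52490113, stood at -2.80, -2.90 and -2.64 on the WT arrays and at -2.13, -1.96 and -2.59 on the KO arrays. On both, KO3 lay closest to the WT arrays. The differences were 0.24 ± 0.16 and 0.55 ± 0.20, and the adjusted p values from limma were 0.689 and 0.540.

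The groups overlapped for the other tested surface genes. Cd22, an inhibitory lectin of the receptor, ran from 0.29 to 1.09 and differed by 0.14 ± 0.23. Cd72, another inhibitory lectin, ran from -1.66 to -0.67 and differed by 0.08 ± 0.32. Fcer2a, which encodes CD23 and marks follicular B cells, ran from -2.22 to -1.66 and had a fold of 1.02 between the group means. Cr2, the complement receptor CD21, ran from -1.61 to -0.97 with a fold of 1.01. Cd38, an ectoenzyme that other leukocytes and muscle also carry, ran from -0.62 to 0.34 and differed by -0.13 ± 0.27. Over the 8 tested surface genes the median difference was 0.05. Fcrl1 was not well above background on any array, Fcrla only on WT3 and KO1, and Cd180, a relative of the Toll-like receptors, only on KO2. The first pair are Fc receptor-like proteins of B cells.

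Of the plasma cell genes, Igj encodes the J chain that joins IgM and IgA into polymers. It stood at -1.34, -2.61 and -1.21 on the WT arrays and at -0.74, -2.82 and -0.99 on the KO arrays. WT2 and KO2 were low and the other 4 arrays were high. The difference was 0.20 ± 0.60. Prdm1, which encodes the repressor BLIMP-1, ran from -2.32 on KO3 to -1.32 on WT3 and differed by -0.37 ± 0.24. Sdc1, syndecan-1, which macrophages and epithelium also carry, ran from -1.11 on KO1 to 0.30 on KO2 and differed by 0.29 ± 0.33.

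Irf4, a factor of plasma cells that activated T cells, macrophages and fat cells also use, had the largest difference of all 27 genes, -1.46 ± 0.80. It stood at -0.30, -2.30 and -1.38 on the WT arrays and at -0.96, -3.68 and -3.73 on the KO arrays. KO2 and KO3 were the lowest of the 6, but KO1 was higher than WT2 and WT3. The probe lies at chr13:30858532-30858591 on mm9, the fold was 2.75 lower in KO marrow arches, and limma gave an adjusted p of 0.646. Without KO1 the difference was -2.38, without WT1 it was -0.95, and after normexp background correction it was -0.62. Over the 4 plasma cell genes the median difference was -0.08.

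Read by array, the members fell into different orders. Replicate 2 was the lowest array within both groups for 9 of the 27 genes by their brightest probes (33.3%). Counted by probe, that was 9 of 34 member probes (26.5%), against 10.4% of all tested probes. No dimmer member probe had that order. The 9 genes were Cd79a, Cd79b, Faim3, Igj, Ms4a1, Pax5, Pou2af1, Spib and Vpreb3, among them a receptor chain, CD20 and the J chain. Cd79a belongs to them by its brighter probe, the one placed on chromosome 12, and its dimmer probe was lowest on WT1 and KO2. Of the 12 T cell markers 2 had replicate 2 lowest in both groups, as had 2 of 10 thymocyte markers. The order was also seen in 4 of the 26 other B cell genes tested and in 3 of 5 mast cell markers. KO2 was the lowest of the 6 arrays for 7 of the 12 T cell markers. The mean level of the T cell markers, centred per gene, was 0.08 on WT2 and -0.47 on KO2. The 4 tested epithelial markers were divided. Krt8 and Krt19 shared the order. Krt8 stood at -0.71, -2.28 and -0.42 on the WT arrays and at 0.13, -2.36 and -0.74 on the KO arrays, and Krt19 at -0.71, -2.93 and -0.04 and at 0.28, -2.43 and -0.83. Krt18, at 2.43, 3.18 and 2.82 on the WT arrays and 2.68, 2.64 and 3.05 on the KO arrays, did not, and neither did Krt5, at -1.83, -1.71 and -1.46 and at -1.59, -1.86 and -1.35. Epcam and Cdh1 were too dim to be tested, and the mast cell markers Fcer1a and Ms4a2 were not tested. The part of epithelial or mast cells in the B cell values was not tested.

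**Figure D3:**
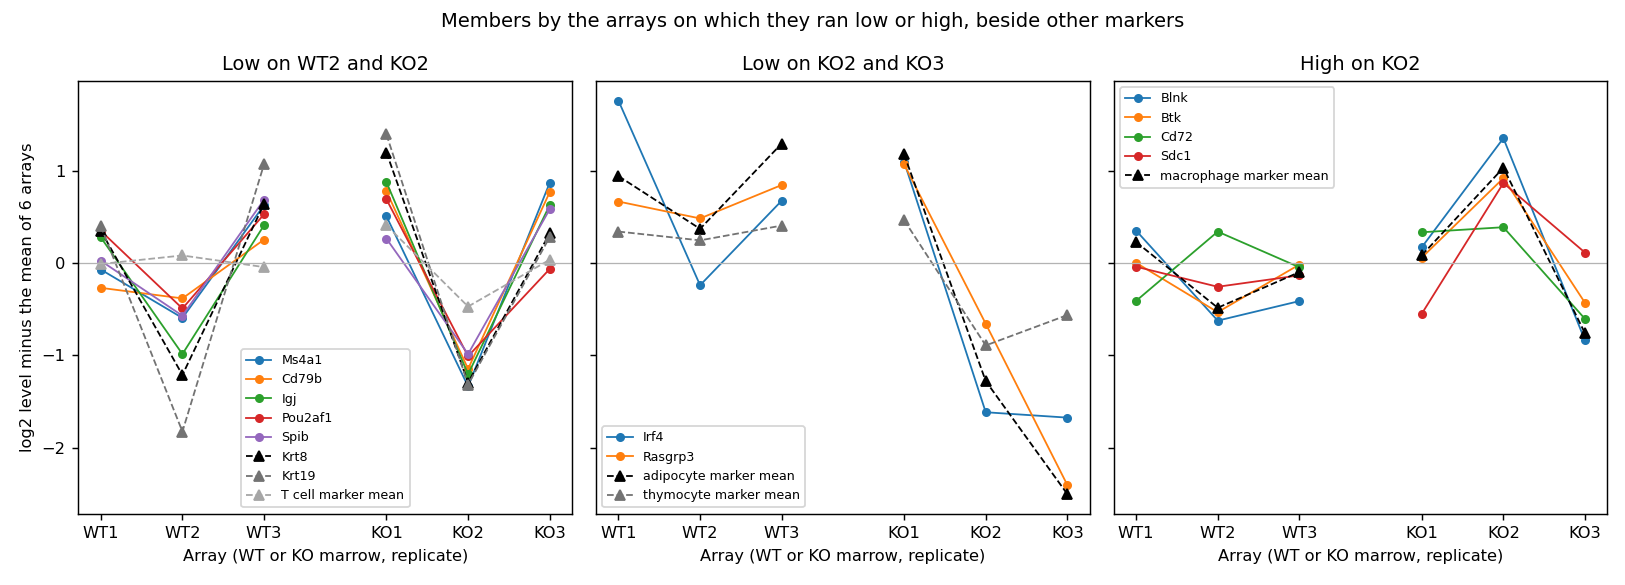
Log2 level minus the mean of 6 arrays (y axis) on each array (x axis) for members that were low on WT2 and KO2 (left), low on KO2 and KO3 (middle) or high on KO2 (right), as circles, with markers of other cell types as triangles on broken lines. Krt8 and Krt19 are 2 of 4 tested epithelial markers, and Krt18 and Krt5 did not share their order. The genes in each panel were chosen by the arrays on which they stood low or high, so the panels describe orders of arrays and test nothing.

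KO2 and KO3 lay below the other 4 arrays for 3 members, Irf4, Pax5 and Rasgrp3 (11.1%), against 14.7% of all tested probes. Adipocyte markers had that order in 9 of 10 genes, and their summed signal was 599 to 1199 on the WT arrays and 82.2 to 1116 on the KO arrays. Thymocyte markers had it in 7 of 10 genes, with summed signals of 15.5 to 23.9 on the WT arrays and 9.53 to 20.6 on the KO arrays. Among the 7, Rag1, Rag2 and Ptcra were well above background on 4 arrays and Themis on 5. These genes entered the test through the WT group, and their lowest KO values give only a bound. Cd1d1 and Cd4 were the brightest of the thymocyte markers and make up most of the summed signal. Cd1d1 had the order, at 3.17, 1.67 and 3.75 on the WT arrays and 3.27, -0.33 and -1.81 on the KO arrays. Cd4 did not, at 2.94, 3.33 and 3.05 and at 3.05, 2.94 and 3.34. Endothelial markers had it in 3 of 8 genes, with summed signals of 44.6 to 61.9 on the WT arrays and 38.2 to 56.0 on the KO arrays. These were Esam, Emcn and Cdh5, the cadherin of endothelium. Cdh5 stood at 2.17, 1.66 and 2.03 on the WT arrays and at 1.99, 0.84 and -0.23 on the KO arrays. Pecam1, Tek, Tie1, Vwf and the brightest Kdr probe did not have the order. Vwf stood at 4.21, 5.06 and 4.20 on the WT arrays and at 3.57, 4.86 and 5.01 on the KO arrays. That Kdr probe stood at 3.62, 3.90 and 3.56 and at 3.60, 3.58 and 3.96. The part of these markers in the Irf4, Pax5 and Rasgrp3 values was not tested. KO2 was the highest array for 4 members, Blnk, Btk, Cd72 and Sdc1 (14.8%), against 14.1% of all probes.

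For 7 genes, 2 probes were tested, and they did not always move together. Pax5 differed by -0.23 ± 0.22 at its brighter probe, at chr4:44658421-44658480 on mm9, and by 0.94 ± 0.37 (limma, adjusted p = 0.558) at its dimmer one, which spans chr4:44550354-44582908. The dimmer probe stood at -3.93, -4.01 and -4.74 on the WT arrays and at -3.60, -3.78 and -2.50 on the KO arrays, with every KO array above every WT array and KO3 well above the rest. Its difference was 0.54 without KO3 and 0.46 after normexp correction. Brighter and dimmer probes also had opposite signs for Pou2f2 (0.15 and -0.24), Cd72 (0.08 and -0.10) and Cr2, each with an interval that includes 0. The dimmer Pou2f2 probe was well above background on 3 WT and 2 KO arrays, so it entered the test through the WT group. Its value on KO3 gives only a bound. The dimmer Cd79a probe, on chromosome 7, stood at -2.73, -2.38 and -2.61 on the WT arrays and at -2.07, -2.30 and -2.12 on the KO arrays, with a difference of 0.41 ± 0.17 (limma, adjusted p = 0.567).

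**Figure D4:**
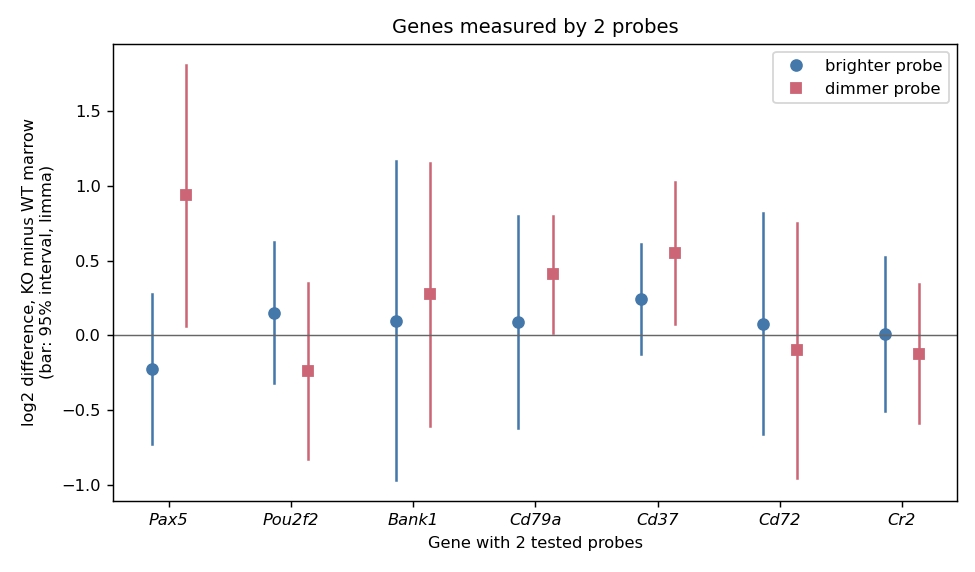
Log2 difference between KO and WT marrow arches (y axis) at the brighter and the dimmer probe of 7 genes (x axis), with 95% intervals from limma over 3 against 3 arrays. The probes of Cd37 lie on the same side of 0, while those of Pax5 lie on opposite sides.

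Other genes of B cells were read from a list of 35, of which 26 were tested. Of the rest, 4 names were not on the array and 5 genes, the immunoglobulin heavy chains Ighm and Ighg among them, were not tested. In this list 0 genes passed the adjusted test, 18 were higher and 8 lower, and the median difference was 0.08. Fkbp11, a chaperone of the secretory pathway in plasma cells, stood at -3.33, -3.92 and -3.56 on the WT arrays and at -5.52, -3.95 and -4.67 on the KO arrays. It was well above background on 4 arrays, the WT arrays and KO2, so that it entered the test through the WT group, and KO1 and KO3 give only a bound. On KO2, the one KO array that measured it, it stood close to WT2, and limma gave an adjusted p of 0.515. Tnfsf13b, which encodes the B cell survival factor BAFF, was lower on every KO array. It stood at -1.43, -1.50 and -1.01 on the WT arrays and at -1.63, -1.65 and -2.17 on the KO arrays, and differed by -0.50 ± 0.22 (limma, adjusted p = 0.577). Ikzf3, the lymphoid factor Aiolos, was higher on every KO array (0.25 ± 0.15), as was 1 of the dimmer probes of Bcl11a (0.63 ± 0.21), a factor of early B cells. H2-Ob, which tunes antigen loading in B cells, differed by 0.37 ± 0.18 with overlapping groups.

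The signalling genes downstream of the receptor, which other leukocytes share, were 20 and all were tested. Again 0 passed the adjusted test, 13 were higher and 7 lower, and the median difference was 0.11. Ptprc, the pan-leukocyte phosphatase CD45, stood at -1.69, -1.57 and -1.96 on the WT arrays and at -1.24, -0.94 and -1.46 on the KO arrays. Its groups did not overlap, and it differed by 0.53 ± 0.20 (limma, adjusted p = 0.543). Pik3cd, the leukocyte PI3-kinase subunit, differed by 0.47 ± 0.23 with overlapping groups at its brightest probe and by 0.78 ± 0.22 without overlap at a dimmer one. Bcl10, an adaptor on the way to NF-kappaB, differed by -0.24 ± 0.18. KO2 was the highest array for 12 of the 20, as it was for the macrophage markers, whose part in these values was not tested.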

How the data were processed

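RNA of 6 arches (100 ng each, integrity number above 7.5, per the labels' protocols) was Cy3-labelled and put on 1 array per arch. The processed signal is an intensity that the authors' scanner software, named in the file headers as Agilent Feature Extraction 10.7.3.1, had corrected for background and spatial trend, with low values replaced by a surrogate and no normalization between arrays. The deposited series table holds the same intensity, to within 0.5%, so its scale, centring and direction are those of the scanner values, with column medians from 32.1 to 54.3.

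Each array had 62976 spots and 55681 probes that are not controls. Log2 intensities minus each array's 75th percentile were averaged per probe, outlier spots left out. Probes well above background on all 3 arrays of a group were tested, 38342 in all after 12 were set aside for outlier spots. KO minus WT differences were fitted with lmFit and eBayes of limma 3.58.1 under R 4.3.3. Tests were two-sided, and p-values were adjusted by Benjamini and Hochberg over every tested probe, at 0.05, after a check on simulated data. The brightest tested probe stands for a gene. Coordinates are those of the scanner files on mm9, and the position of probes relative to exons and introns was not analysed here.

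Members and lists were chosen with earlier results of these data known. All members are named, and of the lists of other B cell and signalling genes the 4 with the smallest p and those without overlap. A gene that this rule would name is not reported here. The other marker lists that are described are given by counts, ranges or markers not tested. Lists of plasmacytoid dendritic cell, lymph node stroma and blood markers were also read and are not described here. The number of arrays limits the precision, and it is only the spread between these mice that the p-values measure. The labels name no pairing by replicate number. Deviations from the group means correlated at 0.122, 0.0499 and -0.276 between same-numbered arrays, and whether those mice were handled together was not tested. Alternatives covered background correction, normalization, filters, the series table, a replicate block, array weights, the variance model, the mean over probes and leaving out each array.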

Additional observations from a re-analysis of the deposited data

How the results depend on the processing

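Over 17 alternatives, 0 member probes passed the adjusted test, and the lowest adjusted p were 0.132 for Rasgrp3 and 0.137 for Irf4, both without KO1. Of 570 single-probe values 56 had their sign turned, in 24 of the 34 probes, and 10 never turned. The causes were not tested. The probes past the adjusted test among all probes were 2 with median centring, array weights or trended robust variance, 4 with normexp, 0 with the filter for all 6 arrays or without moderation, and 1 to 2 when an array was left out. Member probes at an unadjusted p below 0.05 were 1 with normexp or the mean of probes and 5 with array weights. They were 1 to 5 when an array was left out (5 without KO1, 1 without KO3 or any single WT array). With the replicate number as a block they were 1 instead of 3, and that 1 was Irf4 (adjusted p = 0.561, limma), which is none of the 3. The share of all tested probes below that p was not worked out in these settings, so the member counts cannot be read against it. The block took 0 members past the adjusted test, and the labels name no pairing by replicate number. Members whose groups did not overlap were 2 with the mean of probes and 6 to 10 when an array was left out (10 without KO1, 8 without WT2). With fewer arrays in a group, the groups separate more readily for any probe. The share of all tested probes without overlap was not worked out in these settings. Whether the members depart from it was not tested.

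The median difference over the 27 genes was -0.10 with array weights and ran from -0.08 without KO1 to 0.15 without WT3. With array weights it was -0.37 for factors and -0.21 for receptor genes, and with an array left out it ran from -0.25 to 0.17 for factors and from -0.10 to 0.34 for receptor genes. Signs turned with normexp for Spib (0.13) and the dimmer probes of Pou2f2 (0.17), Cd72 (0.031) and Cr2 (0.087). With array weights they turned for Bank1 (-0.39, dimmer probe -0.087), Cd79a (-0.24), Cd79b (-0.25), Cr2 (-0.065), Faim3 (-0.084), Ms4a1 (-0.58), Igj (-0.46) and the dimmer Cd72 probe (0.081). With the mean of probes they turned for Pax5 (0.35), Pou2f2 (-0.044), Cd72 (-0.012) and Cr2 (-0.057).

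With an array left out, the lowest and highest differences were -0.27 and 0.61 for Bank1 (dimmer probe -0.027 and 0.64), -0.11 and 0.99 for Blnk, -0.0037 and 0.67 for Btk, -0.060 and 0.29 for Cd22, -0.31 and 0.13 for Cd38, -0.11 and 0.40 for Cd72 (dimmer probe -0.36 and 0.22), -0.16 and 0.35 for Cd79a and -0.057 and 0.91 for Cd79b. They were -0.10 and 0.22 for Cr2 (dimmer probe -0.28 and 0.045), -0.083 and 0.0062 for Ebf1, -0.075 and 0.20 for Fcer2a, -0.24 and 0.85 for Igj, -0.40 and 0.70 for Ms4a1, -0.66 and 0.18 for Pou2af1, -0.075 and 0.63 for Sdc1, -0.41 and 0.38 for Spib and -1.16 and 0.21 for Vpreb3. Signs held at 0.029 and 0.61 for Vpreb1 (0.51 without KO1), 0.075 and 0.40 for Blk, 0.11 and 0.81 for Faim3, 0.016 and 0.30 for Pou2f2 (dimmer probe -0.40 and -0.020), -0.44 and -0.072 for Pax5 (dimmer probe 0.54 and 1.18), -0.51 and -0.12 for Prdm1, -2.38 and -0.95 for Irf4 and -2.20 and -0.46 for Rasgrp3. They also held at -0.25 and -0.15 for Swap70, 0.19 and 0.33 for Cd37 (dimmer probe 0.42 and 0.73) and 0.33 and 0.50 for the dimmer Cd79a probe. Signal over background limits the dimmest members: Igll1 and Fcrl1 have only a bound, and the Rasgrp3 value on KO3 lies near that array's floor. Fcrla was well above background on 1 WT and 1 KO array and Cd180 on 1 KO array, and both have only a bound elsewhere. Normexp moved Irf4 (-0.62) and Rasgrp3 (-0.55) most.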
